A study of Mus musculus with 2 samples.

Results

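Cluster C13 is the macrophage cluster with the highest summed levels of cell cycle RNA in this tumor data set. It is not the only one with cells high in such RNA. Its members are the cells that the deposited annotation places in C13, all of them in the macrophage class, and they number 434 of 11456 cells. The cells came from tumors engrafted in mice whose heat shock factor 1 has alanine in place of serines 303 and 307 (S303/7A), and in wild-type (WT) mice. Each genotype is 1 droplet library (10x Genomics 3′ chemistry, version 2) of sorted live cells, with CD45-positive and CD45-negative cells mixed 5 to 1. Pooling of tumors, from 4 mice, is stated for the series without saying whether 4 per genotype. Single animals are therefore not resolved, and it is the host mouse that carries the mutation. Neither the strain and age of the mice nor the tumor line is named in the labels. With 1 library per genotype no difference has a replicate check, no p-value is given, and every interval below is an exact 95% interval that covers counting error only.

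Macrophages in tumors are replenished by monocytes from blood and by division of macrophages already in the tissue. A dividing cell first copies its DNA (S phase), with enzymes that make nucleotides, the MCM helicase that opens the DNA and histones that package the copy. It then separates the copies in mitosis (G2/M phase), with cyclin B and its kinase, the kinetochore, and motor proteins of the spindle. Genes of the first step are classically switched on by E2F factors, and those of the second by the MuvB complex with B-Myb and FoxM1.

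The C13 cells numbered 275 in the S303/7A library and 159 in the WT library. Their depth differed: the median was 18801 UMIs per cell in S303/7A and 9330 in WT, where a UMI (unique molecular identifier) stands for 1 captured RNA molecule. The cluster held 5115401 UMIs in S303/7A and 1490478 in WT. Of 48 cell barcodes found in both libraries, C13 held 2, both in S303/7A. Levels below are summed UMIs of a gene per 10000 UMIs of the cluster within a library.

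The label held against its markers. Mki67, a protein coat of mitotic chromosomes, stood at 1.75 per 10000 in S303/7A and 1.56 in WT in C13, against 0.31 and 0.33 in the other macrophage clusters summed (C02, C03, C05 and C09). Birc5, the survivin subunit of the chromosomal passenger complex, stood at 4.42 in S303/7A and 4.02 in WT in C13, against 0.66 and 0.86 in the others. Tk1, the thymidine kinase of S phase, stood at 2.38 and 1.60 in C13, against 0.34 and 0.28. Hist1h2ap, a replication-dependent H2A histone, stood at 8.68 and 7.94 in C13, against 1.35 and 1.88. The macrophage genes were present as well: C1qa, a complement subunit made by tissue macrophages, stood at 56.5 in S303/7A and 47.9 in WT in C13, against 48.0 and 34.2 in the others, and Csf1r, the receptor for the main macrophage growth factor, at 3.95 and 4.36 in C13, against 4.04 and 3.58. Mrc1, the mannose receptor, stood at 3.92 and 3.83 in C13, against 2.78 and 1.65. Fcrls, an Fc receptor-like scavenger receptor, stood at 3.38 and 5.48 in C13, against 2.30 and 1.72. Mrc1 and Fcrls were uneven among C13 cells, as given below. The genes named here took part in forming the cluster, so the values describe it and test nothing.

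Markers of other cells were low in C13. All 13 T cell markers had UMIs in both libraries, with a summed level of 1.31 in S303/7A and 1.69 in WT. The NK cell markers summed to 0.61 and 1.33, with Ncr1 at 0 in S303/7A. The B cell markers summed to 1.29 and 1.95, mostly Ighm, with Cd79a, Pax5 and Ebf1 among those at 0 in both libraries. Tumor and fibroblast markers summed to 0.95 in S303/7A and 1.93 in WT, against 1.10 and 2.57 in the other macrophages. Granulocyte and mast cell markers summed to 0.19 and 0.17, and erythrocyte and endothelial markers to 0.19 and 0.12, with Alas2 at 0 in both libraries. The dendritic cell list summed to 8.52 and 12.4, of which Bst2, also an interferon-response gene, gave 7.72 and 11.4. The part of such RNA in the differences between libraries was not tested.

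Promoters of the cycle genes show the letters through which the 2 programs are classically read. The windows are RefSeq promoters of build GRCm38.p6, each 300 bases long with the start site near its 3′ end, and are written 5′ to 3′ on the gene's strand. Ube2c (the ubiquitin carrier of the anaphase-promoting complex), Top2a (topoisomerase that untangles sister DNA), Mki67 and Cdk1 (the mitotic kinase) are shown because they hold TTTGAA, the core of the cell cycle homology region bound by MuvB, together with CCAAT, the NF-Y site. Capitals mark those letters on either strand, and in Cdk1 also an E2F match. Mcm6, a subunit of the MCM helicase, is shown for the E2F letters TTTGGCGC, TTTCCCGC or TTTCGCGC. Ifit1, an interferon-induced antiviral gene taken up below, is shown for the core of the interferon-stimulated response element, a pair of GAAA runs with 2 bases between them.
Ube2c, chr2:164769679-164769978, plus strand: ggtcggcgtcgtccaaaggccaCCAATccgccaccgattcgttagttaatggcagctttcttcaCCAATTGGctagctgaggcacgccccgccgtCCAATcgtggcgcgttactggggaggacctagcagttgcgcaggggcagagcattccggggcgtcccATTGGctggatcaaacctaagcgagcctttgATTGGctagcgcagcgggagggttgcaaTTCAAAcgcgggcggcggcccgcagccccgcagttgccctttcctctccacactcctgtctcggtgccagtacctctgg
Top2a, chr11:99024140-99024439, minus strand: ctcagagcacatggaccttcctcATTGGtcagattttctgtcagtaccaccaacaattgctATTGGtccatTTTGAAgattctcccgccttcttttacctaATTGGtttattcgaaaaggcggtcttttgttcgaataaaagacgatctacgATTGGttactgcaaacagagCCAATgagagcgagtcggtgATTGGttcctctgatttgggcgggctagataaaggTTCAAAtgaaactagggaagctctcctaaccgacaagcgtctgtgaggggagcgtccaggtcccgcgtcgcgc
Mki67, chr7:135716330-135716629, minus strand: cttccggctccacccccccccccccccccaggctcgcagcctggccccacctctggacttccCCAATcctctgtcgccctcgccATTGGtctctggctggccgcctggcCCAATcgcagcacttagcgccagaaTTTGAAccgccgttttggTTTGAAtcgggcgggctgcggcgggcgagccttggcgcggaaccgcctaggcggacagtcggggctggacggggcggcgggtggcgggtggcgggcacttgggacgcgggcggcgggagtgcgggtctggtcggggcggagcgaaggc
Cdk1, chr10:69352863-69353162, minus strand: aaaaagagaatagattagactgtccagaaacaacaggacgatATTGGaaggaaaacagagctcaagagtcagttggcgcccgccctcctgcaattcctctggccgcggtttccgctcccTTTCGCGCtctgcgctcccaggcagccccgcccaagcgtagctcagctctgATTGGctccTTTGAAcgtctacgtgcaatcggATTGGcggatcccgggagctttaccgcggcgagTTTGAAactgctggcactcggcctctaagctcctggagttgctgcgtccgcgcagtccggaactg
Mcm6, chr1:128359656-128359955, minus strand: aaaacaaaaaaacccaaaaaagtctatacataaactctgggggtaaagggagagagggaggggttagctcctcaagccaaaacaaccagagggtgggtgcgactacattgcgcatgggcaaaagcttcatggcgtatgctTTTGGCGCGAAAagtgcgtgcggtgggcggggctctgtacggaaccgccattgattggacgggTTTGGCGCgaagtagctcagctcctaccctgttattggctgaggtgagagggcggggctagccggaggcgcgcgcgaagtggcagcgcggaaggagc
Ifit1, chr19:34640639-34640938, plus strand: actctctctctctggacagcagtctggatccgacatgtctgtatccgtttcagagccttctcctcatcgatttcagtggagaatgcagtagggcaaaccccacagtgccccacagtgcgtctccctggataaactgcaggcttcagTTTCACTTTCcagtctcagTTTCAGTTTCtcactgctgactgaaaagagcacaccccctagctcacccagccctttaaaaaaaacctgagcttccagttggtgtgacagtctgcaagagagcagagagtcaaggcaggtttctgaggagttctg
TTTGAA was in 38 of 53 promoters of the mitosis list (51 of its 60 genes had an entry), or 71.7%, and in 4 of 40 promoters of the replication list (33 of 42 genes), or 10.0%, against 17.9% of all 32851 promoters. TTTGAA and CCAAT together were in 64.2% of mitosis promoters, 7.5% of replication promoters and 6.95% of all promoters. Both strands were searched and matches may overlap. The E2F letters were in 14 of 40 replication promoters (35.0%), 3 of 53 mitosis promoters (5.66%) and 1.84% of all promoters. A match describes letters in a window and does not show that a factor binds there. The 6 promoters printed were picked because they hold the letters.

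Against the other macrophage clusters, C13 differed mostly by cycle genes. Of 7780 genes found in at least 10% of cells of either side, 325 (4.18%) were at least 2-fold higher in C13 in both libraries and 102 (1.31%) at least 2-fold lower. Of the mitosis list, 55 of 58 measured members were 2-fold higher in both libraries, with a median log2 ratio of C13 over the others of 2.61 in S303/7A and 2.14 in WT. Of the replication list, 34 of 38 were 2-fold higher, with medians of 1.67 and 1.67, and of the replication-dependent histones 4 of 8, with medians of 1.23 and 1.07. All genes had medians of 0.06 and 0.08.

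The 20 genes with the highest ratios were all known cell cycle genes or their regulators. They included kinetochore and centromere genes (Ndc80, Ska3, Oip5, Kntc1, Cenpn), spindle motors and organisers (Kif20a, Kif2c, Hmmr, Ckap2l), the centriole gene Stil, the cohesin acetyltransferase Esco2 of S phase, and the mitotic kinases Pbk and Melk. Ndc80, which couples chromosomes to spindle fibres, stood at 0.29 in S303/7A and 0.30 in WT in C13, against 0.0429 and 0.0415 in the other macrophages. Foxm1, a transcription factor that drives mitosis genes, stood at 0.30 and 0.26, against 0.0474 and 0.0444. E2f7, a repressor that closes the S phase program, stood at 0.104 and 0.134, against 0.0115 and 0.0116. Mcm10, which helps to start replication forks, stood at 0.27 and 0.30, against 0.0437 and 0.0511. Foxm1 and E2f7 belong to the cycle commitment list, of which 5 of 27 measured genes were 2-fold higher in both libraries, against 4.18% of all genes, with medians of 0.23 in S303/7A and 0.28 in WT. Cdkn1a, the p21 inhibitor of cyclin-dependent kinases, stood at 2.27 and 2.33 in C13 and at 2.33 and 2.69 in the others.

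The 10 genes with the lowest ratios included Trbc2 of the T cell receptor and Cd8a of the CD8 coreceptor. With them came the T cell signalling genes Skap1, Cd28 and Sh2d2a, the chemokine receptor Cxcr6, and Gimap1, Ptprcap, Nrgn and Pglyrp1. Trbc2 stood at 0.20 in S303/7A and 0.21 in WT in C13, against 2.41 and 2.39 in the others. Each of the 10 was highest in C05 among the other macrophage clusters. C05 held Trbc2 at 5.58 in S303/7A and 6.72 in WT, and its T cell markers summed to 30.8 in S303/7A and 33.6 in WT, against 0.64 and 0.61 in C02 and 1.39 and 1.11 in C03. High doublet scores were carried by 26.0% of C05 cells in S303/7A and 51.7% in WT, and by 1.82% and 0.63% of C13 cells. With C05 left out, 408 genes were at least 2-fold higher in C13 in both libraries and 31 lower. The T cell marker median was then 0.09 in S303/7A and 0.23 in WT.

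**Figure D1:**
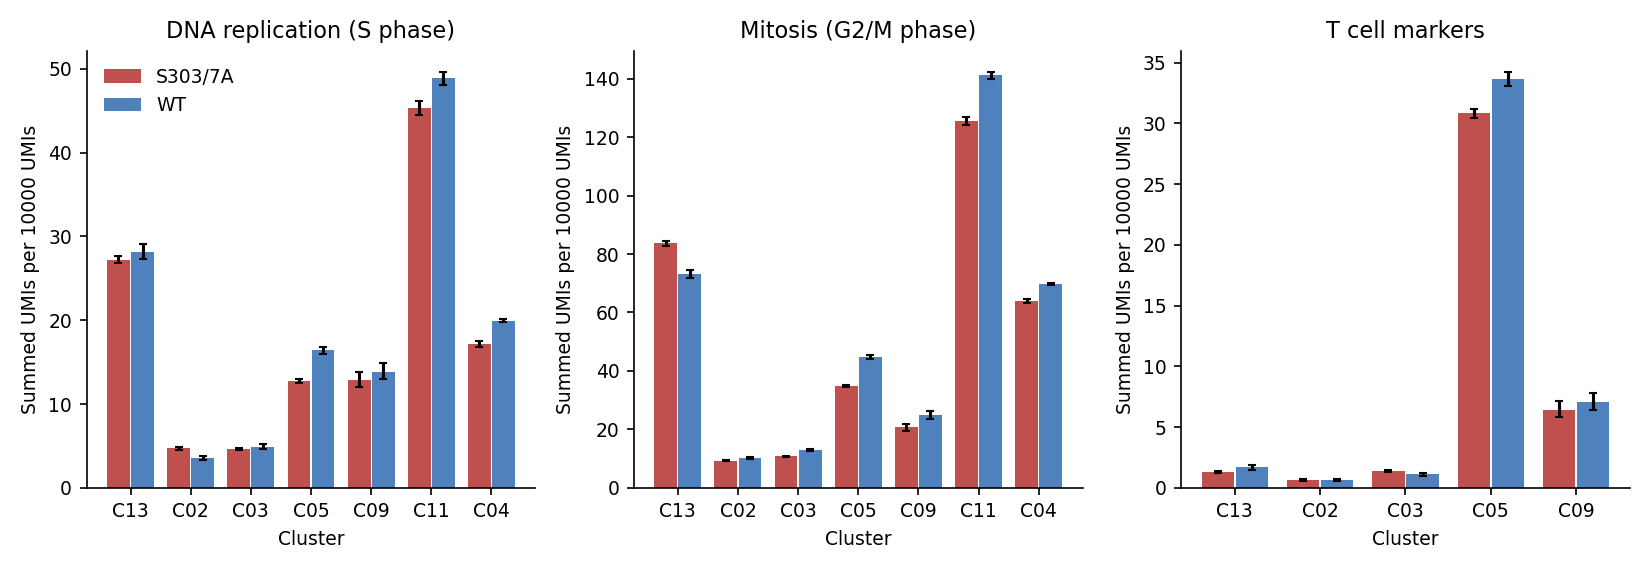
Summed UMIs per 10000 UMIs (bars, with exact Poisson 95% intervals) of the replication, mitosis and T cell marker lists by cluster, S303/7A beside WT. C13 stands above the other macrophage clusters for both cycle lists and below C11, the cycling CD8 T cells. T cell markers are high in C05 and low in C13.

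Against the other clusters summed, genes of macrophage function differed by program, and single clusters differed from that sum. The monocyte list, which holds genes of cells newly arrived from blood, had medians of -0.91 in S303/7A and -2.13 in WT. Its summed level was 11.3 and 13.8 in C13, against 6.19 and 13.1 in C03 and 47.6 and 117 in C02. Plac8, a monocyte gene, stood at 1.90 in S303/7A and 5.55 in WT in C13, against 7.20 and 31.9 in the others. The MHC class II genes, which present peptides to CD4 T cells, had medians of -0.25 and -0.72, with 0 of 8 higher in either library. Their summed level was 288 in S303/7A and 210 in WT in C13, against 602 and 503 in C02. In C03 it was 276 and 294, in C05 223 and 217, and in C09 171 and 207. Glycolysis and hypoxia genes were lower in 24 of 24 in both libraries, with medians of -0.37 and -0.52. Of all 7070 genes measured this way, 4155 were higher in C13 in S303/7A and 4031 in WT. The resident and alternatively activated list had medians of 0.12 in S303/7A and 0.82 in WT, and the macrophage identity list 0.01 and 0.07. The resident list summed to 74.7 and 74.2 in C13, against 120 and 85.3 in C03 and 102 and 48.3 in C09. Nucleotide synthesis genes had medians of 0.71 and 0.60.

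Within the mitosis list 57 of 58 measured members in S303/7A and 58 in WT stood above the other macrophages. Of all 7070 genes, 4155 and 4031 did. Cdk1 stood at 1.43 in S303/7A and 0.99 in WT in C13, against 0.25 and 0.22. Ccnb1, the cyclin B1 partner of Cdk1, stood at 0.72 and 0.51, against 0.0940 and 0.101. Plk1, the polo kinase that builds the spindle, stood at 0.47 and 0.37, against 0.0701 and 0.0935. Ube2c, which hands ubiquitin to the complex that ends mitosis, stood at 3.48 and 2.51, against 0.56 and 0.69, and Top2a at 3.03 and 2.97, against 0.54 and 0.68. Hmgb2, a chromatin protein of dividing cells, had one of the higher levels, at 10.2 and 8.55, against 3.09 and 3.56.

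Within the replication list all 38 measured members stood above the other macrophages in both libraries, against 4155 and 4031 of all 7070 genes. Mcm6 stood at 0.74 in S303/7A and 0.94 in WT, against 0.31 and 0.34. Pcna, the sliding clamp of the polymerase, stood at 0.94 and 1.12, against 0.42 and 0.40. Rrm2, the ribonucleotide reductase subunit that limits nucleotide supply, stood at 0.81 and 0.68, against 0.14 and 0.14. Pclaf, a clamp-associated factor, stood at 4.20 and 4.70, against 0.72 and 1.00. Among the commitment genes, Cdkn2c, the p18 inhibitor of Cdk4 and Cdk6, stood at 1.09 and 0.72, against 0.23 and 0.18, and Mybl2, the B-Myb factor, at 0.20 and 0.25, against 0.0297 and 0.0434. Ccnd2, a D-type cyclin of cycle entry, stood at 1.19 and 1.61, against 1.44 and 1.46.

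The cycle lists gave C13 a level between the 2 other cycling clusters for mitosis genes. The mitosis list summed to 83.7 in S303/7A and 73.3 in WT in C13, against 125 and 141 in C11, the cycling CD8 T cells, and 63.9 and 69.6 in C04, cycling tumor cells. The replication list summed to 27.2 and 28.2 in C13, 45.3 and 48.9 in C11, and 17.2 and 19.9 in C04. The histones summed to 13.9 and 11.5 in C13, 18.0 and 18.9 in C11, and 9.18 and 8.34 in C04.

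To place single cells in the cycle, each cell was thinned to 2000 UMIs, which left out 1 WT cell. A cell counted as over the replication threshold with at least 3 UMIs of that list and as over the mitosis threshold with at least 6, and both thresholds were set after the values were seen. In S303/7A 20.4% of C13 cells were over the replication threshold alone, 51.6% over both and 25.1% over the mitosis threshold alone. In WT the shares were 15.2%, 53.8% and 26.6%. The remaining 2.91% in S303/7A and 4.43% in WT were over neither. Without thinning, at the same levels per UMI, the shares over replication alone, both and mitosis alone were 24.0%, 47.3% and 27.3% in S303/7A and 22%, 44.0% and 32.1% in WT. At or 1 UMI below the replication threshold lay 44 and 29 cells, and 20 and 17 at the mitosis threshold, so the groups are ranges rather than types. C02 and C03 cells were over both thresholds in 1.33% and 0.92% of S303/7A cells, and 0.14% and 0.54% of WT cells. C13 did not hold all such macrophages: of those over both thresholds it held 142 of 301 (47.2%, interval 41.4 to 53) in S303/7A and 85 of 205 (41.5%, interval 34.6 to 48.5) in WT, and C05 held 123 and 99, more than C13 in WT. Over both thresholds were 23.3% of C05 cells in S303/7A and 27.4% in WT, and 17.3% and 18.9% of C09 cells. The mitosis list summed to 35.0 in S303/7A and 44.9 in WT in C05. T cell markers stood at 32.5 in S303/7A and 37.7 in WT in C05 cells over both thresholds, against 1.25 and 1.43 in such C13 cells. In C05 cells over neither they stood at 29.9 and 30.3. High doublet scores were carried by 30.9% and 51.5% of C05 cells over both thresholds. Whether the cycle RNA of these C05 cells came from T cells was not tested.

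**Figure D2:**
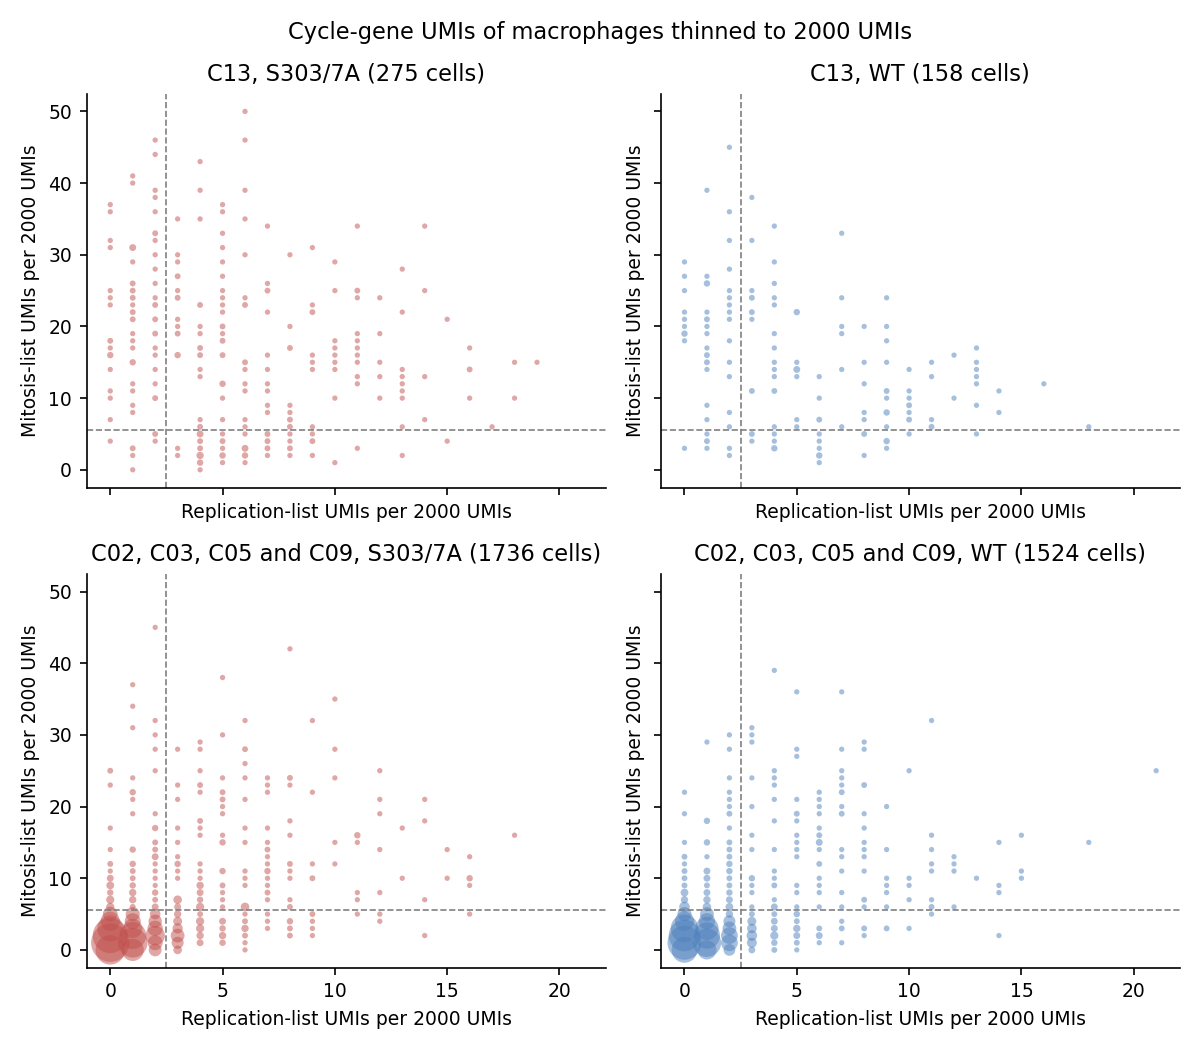
Replication-list UMIs (x axis) against mitosis-list UMIs (y axis) per cell thinned to 2000 UMIs, for C13 (top) and the other macrophage clusters (bottom), S303/7A left and WT right. Dot size grows with the number of cells, and dashed lines mark the thresholds. Most C13 cells lie beyond a threshold, while most of the others lie near the origin.

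The ranges differed in genes that did not define them. Histone RNA, of which this chemistry reads only the part with a poly(A) tail and which was not part of either threshold, summed to 2.04 in S303/7A and 3.01 in WT in cells over replication alone, to 19.5 and 15.4 in cells over both, and to 12.2 and 9.61 in cells over mitosis alone. Resident and alternatively activated genes were highest in cells over replication alone, at 104 in S303/7A and 115 in WT, against 69.4 and 61.3 in cells over mitosis alone. MHC class II genes ran the other way, at 262 in S303/7A and 187 in WT over replication alone and 326 and 254 over mitosis alone. Interferon genes summed to 46.6, 58.1 and 76.0 over the 3 ranges in S303/7A and to 83.5, 72.2 and 88.9 in WT, an order that ran upward in S303/7A and not in WT. The share of cells whose nearest other cluster was C02 (defined below) was 14.3%, 34.5% and 39.1% over the 3 ranges in S303/7A, and 4.17%, 14.1% and 19.0% in WT. These sums rest on 56, 142 and 69 cells in S303/7A and 24, 85 and 42 in WT.

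**Figure D3:**
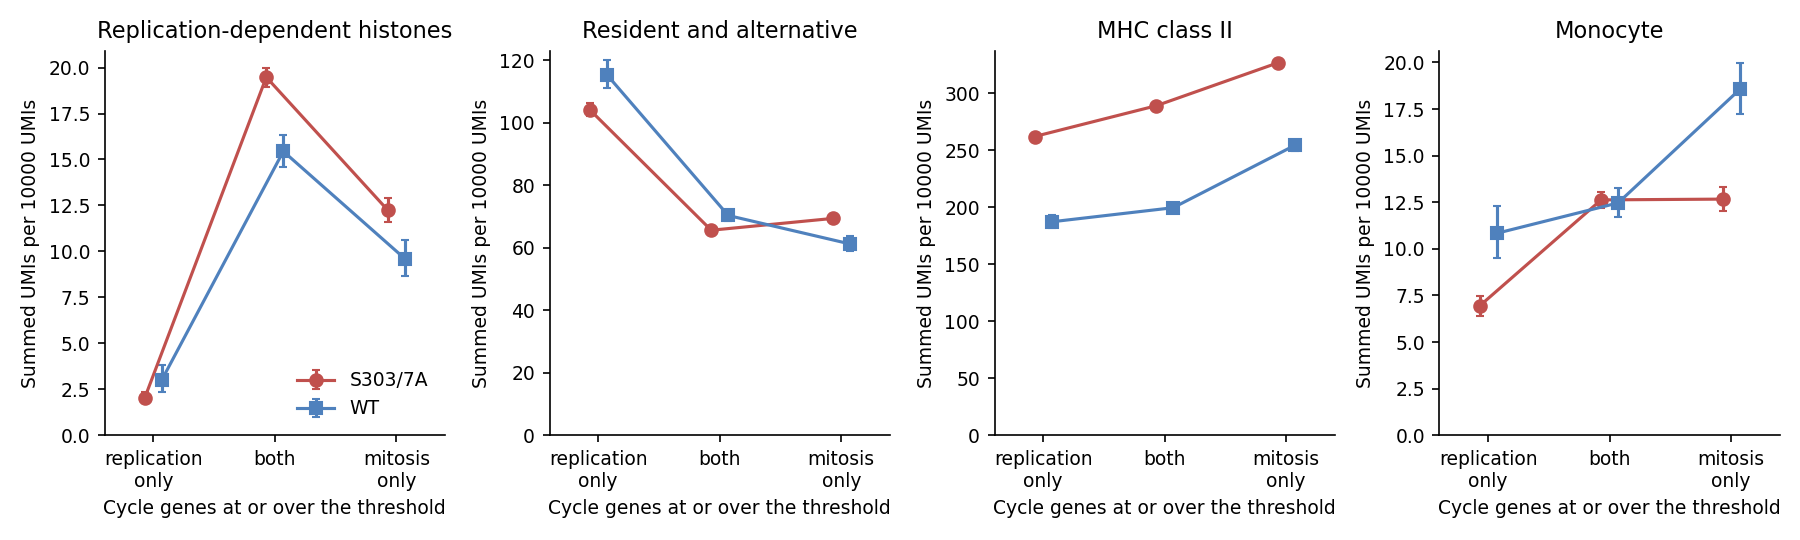
Summed UMIs per 10000 UMIs (y axes, exact Poisson 95% intervals) of 4 gene lists in C13 cells over the replication threshold alone, over both thresholds and over the mitosis threshold alone, S303/7A (circles) and WT (squares). Histone sums are lowest in cells over replication alone, resident genes are highest there, and class II sums are highest in cells over mitosis alone.

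Beneath the cycle genes C13 was most like C03, the cluster of Ccl8 and Ms4a7 macrophages. Over the 1000 most variable genes left after removing cycle, nucleotide, ribosomal and mitochondrial genes, the C13 profile correlated with that of C03 at a Pearson r of 0.97 in S303/7A and 0.98 in WT. With C02, the class II-rich cluster, r was 0.90 and 0.84, with C05 0.85 and 0.79, and with C09 0.88 and 0.89. These are descriptions over genes of the same libraries. Each C13 cell was then given its nearest other cluster by likelihood. C03 was nearest for 60.4% of S303/7A cells and 73.4% of WT cells. C02 was nearest for 30.5% (interval 25.2 to 36.4) of S303/7A cells and 14.6% (9.46 to 21) of WT cells, and with summed profiles of both libraries for 26.2% (21.1 to 31.8) and 17.7% (12.1 to 24.6). The 2 nearest clusters were within a likelihood ratio of 10 in 7 S303/7A cells and 8 WT cells. The same rule returned cells of the other clusters to their own in 57.6 to 94.4% of cases. Those cells were part of the summed profiles, which raises the rate, so it does not measure how well C13 cells are placed.

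Cells nearest to C03 and to C02 differed in what they carried, by the assignment without thinning. Cells nearest to C03 had Ccl8, a chemokine of resident macrophages, at 24.7 per 10000 in S303/7A and 31.6 in WT, against 1.43 and 0.77 in cells nearest to C02. Fcrls stood at 5.03 in S303/7A and 6.46 in WT in cells nearest to C03, and at 0.28 and 0.04 in those nearest to C02. Mrc1 stood at 5.45 and 4.21 in the former, and at 0.86 and 0.73 in the latter. Cd74, the class II chaperone, stood at 86.5 in S303/7A and 65.0 in WT in cells nearest to C03, and at 213 and 207 in those nearest to C02. The mitosis list stood at 76.8 in S303/7A and 70.7 in WT in cells nearest to C03, and at 94.8 and 83.4 in those nearest to C02. The assignment used these non-cycle genes, so their values describe it. The groups held 172 and 120 cells nearest to C03, and 85 and 22 nearest to C02.

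C13 made up a larger share of macrophages in S303/7A than in WT. It was 13.2% of 2082 macrophages in S303/7A (interval 11.8 to 14.7) and 8.02% of 1983 in WT (6.86 to 9.30), a ratio of 1.65 (1.35 to 2.02). Of CD45-positive cells it was 7.37% in S303/7A and 3.82% in WT. Among the other clusters, C03 was 26.2% and 18.9% of macrophages, C05 25.3% and 18.3%, C02 25.3% and 35.4%, and C09 10.0% and 19.5%. C09 is shallow, at a median of 2545 UMIs per cell in S303/7A and 1386 in WT, and depth differed between the libraries in all these clusters. The part of depth in the shares was not tested, and without C09 the ratio was 1.47. Shares sum to a whole, so more cells of C13 and fewer of the others cannot be told apart.

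Hsf1 itself does not check the genotype, since the mutation changes codons and 3′ counts do not read it. Its level in C13 was 0.14 in S303/7A and 0.13 in WT, a ratio of 1.05 (0.63 to 1.82).

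Between the libraries C13 differed in few genes at this fold. Of 7685 genes found in at least 10% of C13 cells, 131 (1.70%) were at least 2-fold higher in S303/7A and 69 (0.898%) at least 2-fold lower, which is 2.60% either way. The counts move with the filter: 26 and 21 of 4636 genes with the cut at 25% of cells. With no filter 670 genes were higher and 855 lower, and with 0.1 UMIs per 10000 added 16 and 20. After thinning to 2000 UMIs 726 were higher and 497 lower, so the larger side changed with the setting. The filter averages detection over both libraries. S303/7A cells were deeper, at a median of 18801 UMIs against 9330 in WT, so a gene could pass mainly through S303/7A. The part of depth in these counts was not tested. Of the 131 higher genes, 24 (18.3%) were also 2-fold higher in the other macrophages, which is 32.9% of the 73 there. Of the 69 lower genes, 27 (39.1%) were also lower there, which is 44.3% of the 61. The 2 comparisons share no cells, but they share the libraries.

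The heat shock genes were lower in S303/7A in most members, and Hspa1a had the lowest ratio of the genes ranked. Hspa1a, the inducible HSP70 and a classic target of Hsf1, lies on GRCm38 at chr17:34969190-34972156 on the minus strand. It stood at 0.11 in S303/7A (54 UMIs) and 0.97 in WT (144 UMIs), a ratio of 0.109 (0.0784 to 0.150), and in the other macrophages at 0.19 and 0.65. Its near-identical copy Hspa1b had 1 UMI in S303/7A and 20 in WT, and reads of the pair may have been divided between them. Hsph1, its nucleotide exchange factor, stood at 0.12 and 0.29, a ratio of 0.42. Dnajb1, the HSP40 partner, stood at 0.34 and 0.55, a ratio of 0.62. In all, 17 of 24 measured heat shock genes were lower in S303/7A, against 46.4% of all 7089 genes measured at this level, and the list's median was -0.25, against 0.03 over all genes. In 11 of the 24 the ratio's interval lay below 1, against 9.31% of all genes. In the other macrophages the list's median was -0.22. The immediate early genes, which rise when tissue is dissociated, had a median of -0.03.

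Interferon genes were lower in S303/7A. Of 50 measured, 43 were lower, against 46.4% of all genes, and 31 had an interval below 1, against 9.31% of all genes. The median was -0.45. Rsad2, the antiviral enzyme viperin, stood at 0.44 in S303/7A and 1.15 in WT, a ratio of 0.385 (0.314 to 0.473). Ifit1, whose promoter is shown above, stood at 0.45 and 0.88, a ratio of 0.51. Gbp2, a guanylate-binding protein, stood at 0.98 and 2.05. The paired GAAA runs were in 26 of 48 promoters of the list (54.2%), against 3.44% of all. In the other macrophages the list's median was -0.69. MHC class I presentation genes were lower in 19 of 23, against the same 46.4%, with a median of -0.22, and in the other macrophages of -0.52. H2-K1, a class I heavy chain, stood at 12.5 and 18.5. Ccl5, a chemokine for T cells, stood at 2.96 in S303/7A and 7.96 in WT.

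MHC class II genes were higher in S303/7A within C13. All 8 measured members were higher, each with an interval above 1 (11.1% of all genes), and 53.6% of all genes were higher at all. The median was 0.44, against -0.04 in the other macrophages. Cd74 stood at 128 in S303/7A and 85.6 in WT, H2-Aa, a class II alpha chain, at 50.2 and 36.9, and Ciita, the factor that switches on these genes, at 0.66 and 0.30. H2-DMb2, which edits the bound peptide, stood at 0.59 and 0.21. The share of cells nearest to C02 was also larger in S303/7A, by an assignment that used class II genes among others. With summed profiles of both libraries the intervals of that share overlapped (21.1 to 31.8 in S303/7A and 12.1 to 24.6 in WT). The part of this share in the class II difference was not tested. Weighting by an assignment that used class II genes can itself lower their difference. With cells weighted so that each nearest cluster counts alike in both libraries, the median was 0.02, and -0.04 when nearest clusters were found without class II genes. In cells nearest to C03 it was 0.07. By summed level the list still stood at 181 in S303/7A and 154 in WT in cells nearest to C03. In cells nearest to C02 it stood at 499 and 540, the WT value from 22 cells.

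Cycle lists differed by small ratios between the libraries. The mitosis list was higher in 47 of 60 members, with a median of 0.16 and a summed ratio of 1.14 (1.12 to 1.17). Its intervals lay above 1 in 19 members and below in 1, against 11.1% and 9.31% of all genes. The replication list was lower in 29 of 42, with a median of -0.10 and a summed ratio of 0.97 (0.93 to 1.00). Its intervals lay above 1 in 1 member and below in 6. Histones had a summed ratio of 1.21 (1.15 to 1.28), with intervals above 1 in 5 of 9 and below in 0. Prc1, the spindle bundling protein, stood at 0.99 in S303/7A and 0.53 in WT, and Pttg1, the securin, at 0.53 and 1.16. Tk1 had a ratio of 1.49 (1.29 to 1.71). Of all genes, 53.6% were higher and 46.4% lower. In the other macrophages the mitosis median was -0.16, opposite in sign, with 13 of the 60 members higher. After thinning, the replication median was 0.016.

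**Figure D4:**
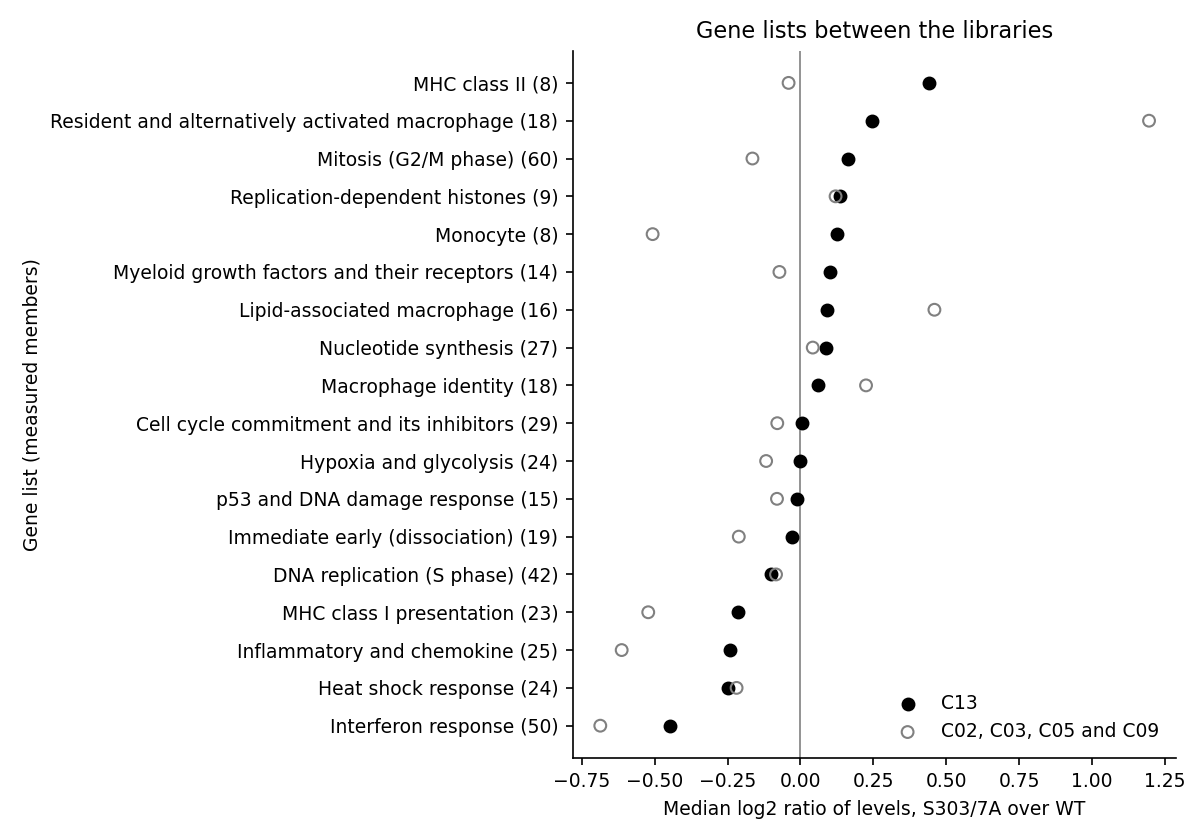
Median log2 ratio of levels, S303/7A over WT (x axis), of each gene list with at least 8 measured members (rows), in C13 (filled) and in C02, C03, C05 and C09 together (open). The interferon list is lowest in C13 at -0.45 and the class II list highest at 0.44.

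The macrophage programs differed by member. The resident and alternatively activated list had a median of 0.25 with 13 of 18 higher, against 53.6% of all genes higher and a list median of 1.20 in the other macrophages, while its summed level was 74.7 in S303/7A and 74.2 in WT. The median was 0.62 with nearest clusters weighted alike, 0.65 when these were found without class II genes, and 0.56 in cells nearest to C03. Mgl2, a sugar-binding receptor of alternatively activated macrophages, stood at 1.56 and 0.61, and Arg1, arginase, at 0.15 and 0.35. Apoe, the lipid carrier, stood at 104 and 43.3, and Trem2, a lipid-sensing receptor, at 3.57 and 2.49. The lipid-associated list, which holds Apoe, had a median of 0.09 with 9 of 16 measured members higher. It summed to 163 in S303/7A and 105 in WT, a ratio of 1.55 (1.53 to 1.58). Apoe alone gave 104 and 43.3 of these sums, so the summed ratio does not describe the list's members in general. The monocyte list had 5 of 8 measured members higher and a median of 0.12, opposite in sign to its summed ratio of 0.82. The median was -0.26 with nearest clusters weighted alike, -0.39 when these were found without class II genes, -0.67 in cells nearest to C03, -0.27 with the stricter filter, -0.19 after thinning and -0.18 with no filter. S100a4, a calcium-binding protein, stood at 2.11 in S303/7A and 0.85 in WT. Plac8 had a ratio of 0.34 (0.31 to 0.38) and Ly6c2, a surface protein of inflammatory monocytes, stood at 0.43 and 1.07. Ly6i stood at 0.27 and 0.13 in C13 and at 0.50 and 3.64 in the other macrophages. The macrophage identity list had a median of 0.06, myeloid growth factors and receptors 0.10, inflammatory genes -0.24 and cycle commitment genes 0.01. Nucleotide synthesis had a median of 0.09, hypoxia and glycolysis -0.00 and p53 response -0.01.

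Single genes at the ends of the range were mostly low. Hpgd, the enzyme that breaks down prostaglandins, had 110 UMIs in S303/7A and 1 in WT, a ratio of 32.1 (5.63 to 1277), and was also higher in the other macrophages, at 0.215 in S303/7A and 0.00868 in WT. Ccl24, an eosinophil chemokine of alternatively activated macrophages, stood at 0.256 and 0.0268, and Hgsnat, a lysosomal enzyme, at 0.85 and 0.21. Gsr, glutathione reductase, stood at 0.12 and 0.40, Mmp13, a collagenase, at 0.12 and 0.40, and Thbs1, thrombospondin, at 0.14 and 0.44. Thbs1 is on the tumor and fibroblast marker list, of which 5 of 5 measured members were lower in S303/7A, against 46.4% of all genes. That list's median was -1.03 in C13 and -1.30 in the other macrophages. Ppfia4 stood at 0.11 in S303/7A and 1.00 in WT, and Gdf3, a growth factor of the TGF-beta family, at 0.10 and 0.49. Tpm3-rs7 stood at 2.84 and 0.0604 while Tpm3, a near-identical gene, stood at 1.47 and 3.50, and in the other macrophages Tpm3-rs7 stood at 2.57 and 0.0665 and Tpm3 at 1.34 and 3.50. How reads were assigned to the copies was not tested, so both values are uncertain.

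**Figure D5:**
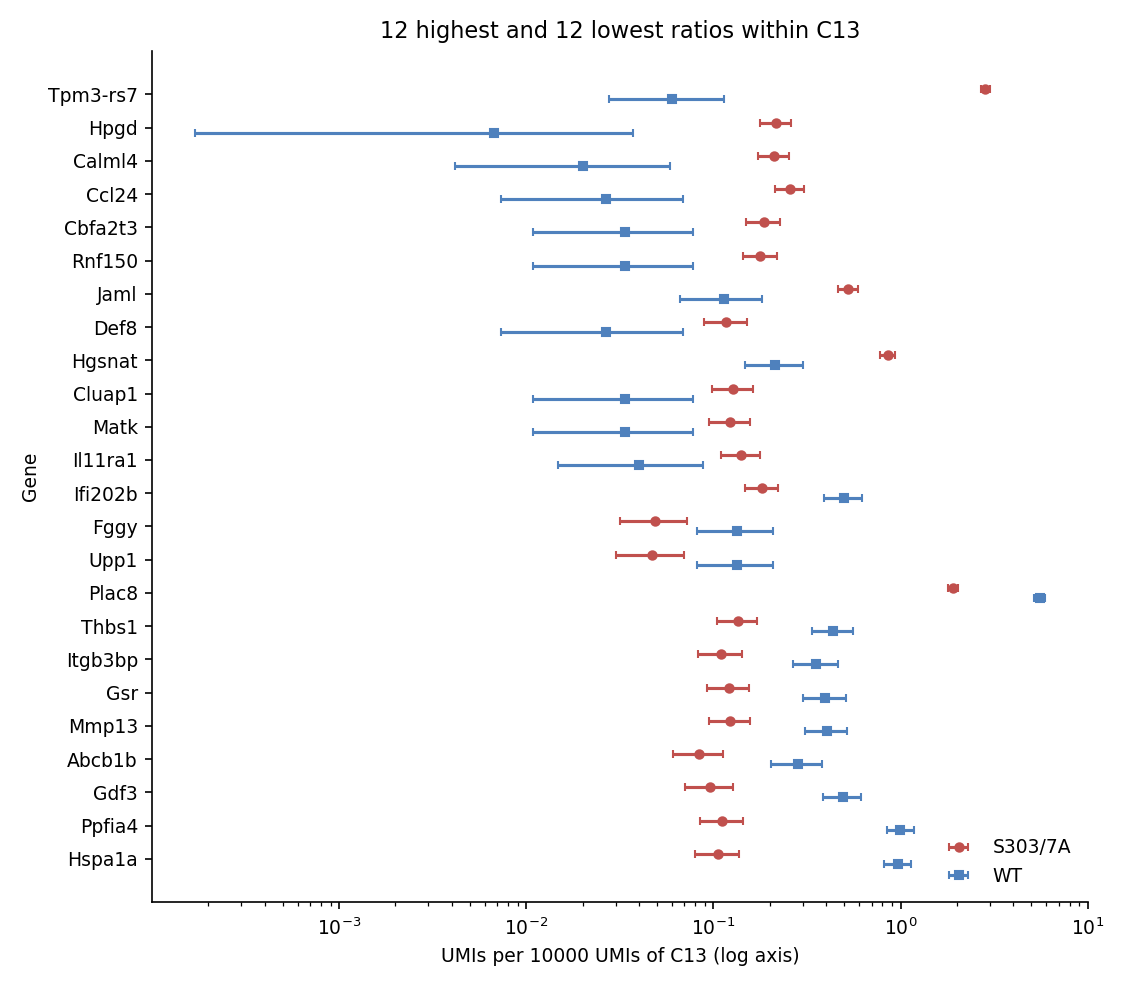
UMIs per 10000 UMIs of C13 (log axis, exact Poisson 95% intervals) of the 12 genes with the highest and the 12 with the lowest ratio, S303/7A (circles) and WT (squares). Hspa1a is at 0.11 in S303/7A and 0.97 in WT, and Hpgd rests on 1 UMI in WT.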

How the data were processed

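The authors deposited, for each cell, the natural log of 1 plus UMIs per 100000, as 3-decimal values, with the UMI count and gene count per cell and the percent of mitochondrial UMIs, and an annotation of clusters and classes. Per the submitters' processing notes the tools were Cell Ranger and Seurat 3.0 and the builds mm10 and GRCm38. Neither cell filters nor the way clusters were made is stated in the labels. Undoing the log gave whole UMI counts (99.9% of values within 0.1 UMI), recovered here from the deposited values.

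UMIs were summed by cluster and library. Genes were compared if found in at least 10% of C13 cells on the mean of the 2 libraries, and lists over members of at least 0.1 UMIs per 10000. Ratios carry exact conditional intervals and shares exact Clopper-Pearson intervals (scipy 1.17.1). Doublets were scored with Scrublet (scanpy 1.11.5); its own threshold marked 0.083% and 0.827% of cells, so the highest 0.8% per 1000 cells were taken in an alternative only. The ratios and intervals were tested on simulated data, drawn as independent Poisson counts from the summed WT profile of C13. Such counts hold no differences between cells, so the test does not cover that spread. The genes named are the 20 highest and 10 lowest of C13 over the other clusters, the 12 highest and 12 lowest of S303/7A over WT without ribosomal, mitochondrial, Gm or Rik genes, up to 5 per list, Hsf1 and the markers; a few other list members are named as examples after seeing values. The members and the 25 lists were chosen with earlier results of these data known, and the cell cycle thresholds, the promoter motifs and the sterol list after seeing values.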

Additional observations from a re-analysis of the deposited data

Results flagged for a closer look

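The MHC class II list was set apart because its median log2 ratio of S303/7A over WT was 0.44 in C13 and -0.04 in the other macrophage clusters, opposite in direction. The difference between the 2 was not tested. Fggy, a carbohydrate kinase gene, had a log2 ratio of -1.46 in C13, from 25 UMIs in S303/7A and 20 in WT, and 0.06 in the other macrophages, also not tested.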

How the results depend on the processing

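No paired analysis was possible because each genotype is 1 library. Under the alternatives, 243 values of results that answer a comparison stayed close to the reported value, 42 moved further, and the class II median turned round in 1 setting; the cause was not tested. Of 198 list medians under alternatives, 21 lay on the other side of 0 from the reported value, in 8 lists. Genes 2-fold higher and lower in S303/7A numbered 131 and 69. They numbered 16 and 20 with 0.1 UMIs per 10000 added, 2 and 2 with 1 added, 726 and 497 after thinning to 2000 UMIs, 670 and 855 with no filter, and 26 and 21 at 25% of cells. Without C05, an alternative added after seeing the data, 31 genes were 2-fold lower in C13. Without thinning, 22% of WT cells were over the replication threshold alone and 44.0% over both. The percentage nearest to C05 without the variable gene limit was 8.73 in S303/7A and 5.06 in WT, and to C02 in WT 8.86. Without class II genes, C02 was nearest for 8.86% and C03 for 80.4% of WT cells. With summed profiles, C03 was nearest for 68% in S303/7A and 63.3% in WT, and C05 for 1.09% in S303/7A. The class II median was 0.50 as a mean over cells, 0.38 with 1 UMI added, 0.53 thinned, 0.51 unfiltered, 0.33 with the stricter filter, 0.017 with nearest clusters weighted alike, -0.037 with those found without class II genes, and 0.072 in cells nearest to C03. In the last 3 settings the resident median was 0.62, 0.65 and 0.56 and the monocyte median -0.26, -0.39 and -0.67. The monocyte median was -0.27 with the stricter filter, the resident median 0.12 unfiltered, the lipid median -0.064 with the stricter filter and 0.26 weighted without class II genes, the histone median 0.67 unfiltered and 0.66 stricter, and the identity median 0.18 as a mean over cells and 0.19 thinned. Among single genes, thinning turned the sign of the log2 ratio of Birc5 (-0.0060), Csf2ra (-0.25), Ctps (0.0078), Dck (0.14), Hist1h3d (-0.80), Hist3h2a (-0.034) and Pimreg (-0.063), and weighting that of H2-Ab1 (-0.013). The WT library is shallower, with 9330 UMIs per C13 cell at the median, which limits low genes.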

Other observations

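Genes of sterol synthesis and uptake, a list chosen after its values were seen, were higher in S303/7A in 12 of 13 measured members within C13, against 53.6% of all genes, with a median log2 ratio of 0.54, and of 0.31 in the other macrophages. In 4 of them the counting interval lay above 1, against 11.1% of all genes. Mvd, an enzyme of the mevalonate pathway, stood at 0.162 per 10000 in S303/7A and 0.0604 in WT, and Fdps, farnesyl diphosphate synthase, at 0.440 and 0.242. These levels rest on 83 and 225 UMIs in S303/7A and on 9 and 36 in WT.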
